A study of Mus musculus with 4 samples.

Results

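The 9 enzymes described here carry out steps of the mevalonate pathway and of cholesterol synthesis, and were taken by gene symbol from a table of 15835 genes, in which all 9 were found. Hmgcs1, Mvd, Idi1 and Fdps (4 enzymes) were taken as early mevalonate steps, and Fdft1, Sqle, Lss, Cyp51 and Sc4mol (5 enzymes) as late sterol steps. RNA came from group 2 innate lymphoid cells (ILC2), which are lymphocytes resident in tissue that respond to alarm cytokines. The cells were from the islets of the pancreas of C57BL/6j mice that were fasted (4 libraries) or fed (4 libraries). The length of the fast, the age and sex of the mice and the gate used to isolate the cells are not given in the sources used here. Each library is called by its treatment and its column number (1, 3, 4 or 5), and columns headed control were taken to be fed.

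The pathway starts from acetyl-CoA. Hmgcs1 makes the precursor of mevalonate, and Mvd and Idi1 act later, after mevalonate has been phosphorylated, to give isoprene units. Fdps joins these units into farnesyl diphosphate, from which branches lead to prenylated proteins, dolichol and ubiquinone. Fdft1 (squalene synthase) commits farnesyl diphosphate to sterols, Sqle oxidises squalene, Lss closes the rings to give lanosterol, and Cyp51 and Sc4mol (also called Msmo1) remove methyl groups on the way to cholesterol. When sterols run low, the escort protein Scap carries the transcription factor Srebf2 to the Golgi, where it is cut and released to induce the genes of this pathway, while Insig1 holds Scap back when sterols are plentiful. Lymphocytes raise this synthesis when they grow and divide.

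Total counts ran from 2041697 to 9366807 in the fasted libraries and from 1797504 to 25252366 in the fed libraries. Levels are CPM, counts scaled to a common library size, over library sizes scaled by the trimmed mean of M values (TMM), on which 1 count was worth between 0.184 and 0.233 CPM in fasted and between 0.0736 and 0.444 CPM in fed libraries. They are counts of 3' ends, not divided by length, and each is compared only with the same gene or sum in other libraries. All 15 ILC2 identity markers had counts, 13 of them in every library, and together took from 0.148% to 0.634% of counts in fasted and from 0.118% to 0.409% in fed libraries. The 23 acinar marker genes found, which encode digestive enzymes and other products of the exocrine cells around the islets, took 3.04% and 3.39% of counts in fasted libraries 1 and 3, 69.4% and 71.2% in fasted libraries 4 and 5, and from 42.8% to 74.2% in fed libraries. In RNA from such mixtures, fewer cells of a type and less RNA per cell cannot be told apart.

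Summed on TMM-scaled levels, the 9 enzymes stood lower in ILC2 preparations of fasted than of fed mice, although no single enzyme passed the threshold. Several other tested enzymes of the same arms, given further on, were level between the groups. Summed over the 9 enzymes, the level was 23.8, 41.4, 38.7 and 31.7 CPM in fasted libraries 1, 3, 4 and 5, against 75.0, 97.5, 88.7 and 67.9 CPM in fed libraries 1, 3, 4 and 5. Every fasted library lay below every fed library, and the means were 33.9 ± 7.88 CPM in fasted and 82.3 ± 13.3 CPM in fed libraries (SD, n = 4 each). The sums rest on between 102 and 213 counts in a fasted library and between 169 and 1206 counts in a fed library.

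Among single genes, 7 of the 9 enzymes passed the filter on low counts and entered the test, and 2, Hmgcs1 and Idi1, did not. The filter asked for the CPM that 10 counts give at the median library total (1.99) in at least 4 libraries. Fdps met it in 4 fed and 2 fasted libraries and Sqle in 3 fed and 1 fasted library, so these passed mainly through the fed group, and the counts that follow describe the tested enzymes and support nothing further. Of the 7, 6 had a negative log2 fold change (fasted minus fed) and 1 a positive one, where 50.2% of the 7700 genes tested were negative. The median was -1.52 for the 7 enzymes and 0.00 for all genes tested. With edgeR's quasi-likelihood test and Benjamini-Hochberg adjustment over all genes, 0 of the 7 had an adjusted p under 0.05, as did 0 of all genes tested (0%). Without adjustment, 5 of the 7 were lower with p under 0.05, a mark that 1.62% of all genes tested reached in this direction. The count was 0 of 7 with library totals alone as the scaling and 2 of 8 without fasted libraries 1 and 3. In either direction 338 genes (4.39%) reached it without adjustment, and 536 with the replicate block, which pairs libraries of the same number; leaving out 1 library gave from 249 to 561, the highest without fasted library 4. A log2 fold change below -1 was found for 5 of the 7 and for 4.25% of all genes tested. DESeq2 called 17 genes, but its independent filtering left 1649 genes, Mvd, Sqle and Lss among them, with no adjusted p, and none of the 4 enzymes with one (Fdps, Fdft1, Cyp51 and Sc4mol) was called. Without that filtering DESeq2 called 8 genes and none of the 7 enzymes, and limma-voom called 0.

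**Figure D1:**
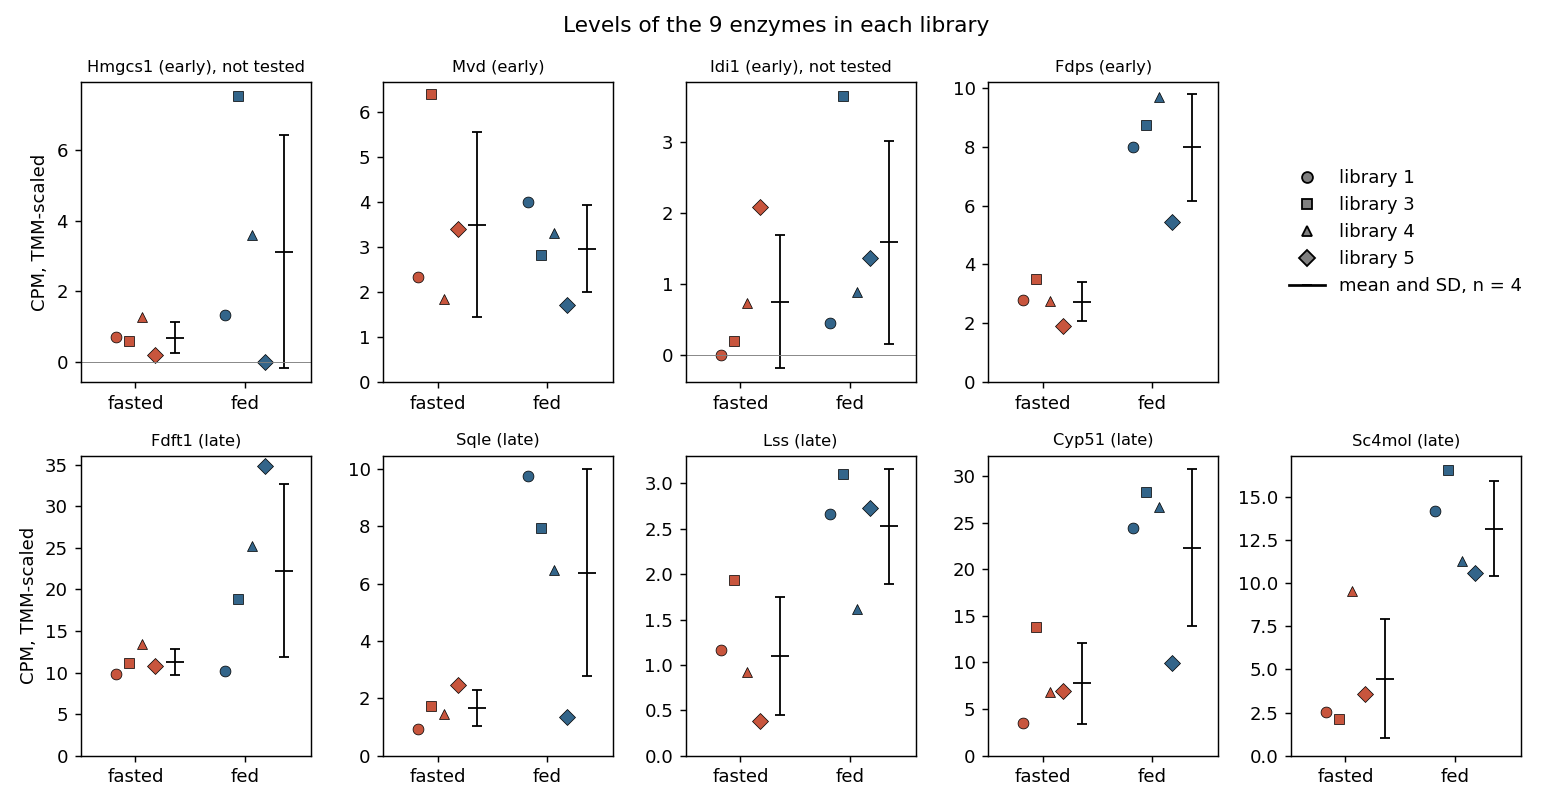
Level of each enzyme (CPM over TMM-scaled library sizes, linear axes) in the 4 fasted and the 4 fed libraries, with 1 point for each library, shaped by its number, and the mean and SD beside them. All fasted points lie below all fed points for Fdps and Sc4mol, fed library 5 falls among the fasted libraries for Sqle, and Mvd shows no separation.

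Of the early steps, Fdps was the enzyme whose groups stood apart. Fdps had 2.79, 3.50, 2.75 and 1.89 CPM in fasted libraries 1, 3, 4 and 5, against 7.99, 8.76, 9.71 and 5.46 CPM in fed libraries 1, 3, 4 and 5. The groups did not overlap, which held for 2 of the 9 enzymes, Fdps and Sc4mol, and for 1.31% of all genes tested with fasted below fed. The log2 fold change of Fdps was -1.55 ± 0.43 (SE; edgeR quasi-likelihood test, unadjusted p = 0.00392, Benjamini-Hochberg adjusted p = 0.712). By unadjusted p it ranked 42 among the 7700 genes, and its counts came to 55 in fasted and 231 in fed libraries. Fdps lies on chromosome 3 of mm10 at 89093588 to 89101959.

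Mvd, which decarboxylates mevalonate diphosphate, was the tested enzyme with a positive value. Mvd had 2.33, 6.41, 1.84 and 3.40 CPM in fasted libraries 1, 3, 4 and 5, against 4.00, 2.83, 3.31 and 1.70 CPM in fed libraries 1, 3, 4 and 5. The highest and the next to lowest of all 8 values were both fasted, so the groups overlapped throughout. Its log2 fold change was 0.24 ± 0.57 (edgeR, unadjusted p = 0.68, adjusted p = 1.00), and it was -0.23 without fasted library 3, which held 33 of the 71 fasted counts. Mvd lies on chromosome 8 at 122433601 to 122443422.

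Hmgcs1 and Idi1, on chromosome 13, had too few counts to be tested. Hmgcs1, the cytosolic synthase that opens the pathway, had 3, 3, 7 and 1 counts in fasted libraries 1, 3, 4 and 5, against 3, 56, 49 and 0 counts in fed libraries 1, 3, 4 and 5. Its fed counts came almost entirely from libraries 3 and 4, at 7.54 and 3.60 CPM, while the fasted libraries lay between 0.189 and 1.28 CPM. The 0 counts of fed library 5 allow a level of up to 1.02 CPM (3 counts), so fed library 5 cannot be set apart from the fasted libraries. Idi1, the isomerase that interconverts the isoprene units, had 0, 1, 4 and 11 counts in fasted libraries 1, 3, 4 and 5, against 1, 27, 12 and 4 counts in fed libraries 1, 3, 4 and 5. Its levels of 0.751 ± 0.936 CPM in fasted and 1.58 ± 1.42 CPM in fed libraries overlapped. Fitted without a filter, Hmgcs1 had a log2 fold change of -2.20 ± 1.08 and Idi1 one of -1.09 ± 1.27 (edgeR, adjusted p = 0.676 and 0.858).

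Of the late steps, Fdft1 stands at the branch point into sterols. Fdft1 had 9.78, 11.1, 13.4 and 10.8 CPM in fasted libraries 1, 3, 4 and 5, against 10.2, 18.9, 25.2 and 34.8 CPM in fed libraries 1, 3, 4 and 5. The fasted libraries lay close together and the fed libraries were spread widely, with fed library 1 at the fasted level. The log2 fold change was -0.99 ± 0.37 (edgeR, unadjusted p = 0.0208, adjusted p = 1.00), and Fdft1 lies on chromosome 14 at 63145150 to 63179578.

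Sqle, which catalyses the first oxygenation of the sterol branch and is one of its rate-limiting enzymes, had the most negative fold change of the tested enzymes. It had 0.931, 1.75, 1.47 and 2.45 CPM in fasted libraries 1, 3, 4 and 5, against 9.77, 7.95, 6.47 and 1.36 CPM in fed libraries 1, 3, 4 and 5. Fed library 5 lay within the fasted range, on 4 counts whose exact 95% Poisson interval ran from 0.372 to 3.49 CPM, and the other fed libraries lay above every fasted library. The log2 fold change was -1.93 ± 0.63 (edgeR, unadjusted p = 0.0106, adjusted p = 0.869). With 1 library left out it ran from -2.26 (without fed library 5) to -1.68 (without fed library 1). Sqle lies on chromosome 15 at 59315077 to 59331192.

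Lss, the cyclase that makes lanosterol, was scarce, with 22 counts in fasted and 59 in fed libraries. It had 1.16, 1.94, 0.918 and 0.377 CPM in fasted libraries 1, 3, 4 and 5, against 2.66, 3.10, 1.62 and 2.73 CPM in fed libraries 1, 3, 4 and 5. Only fasted library 3 and fed library 4 crossed. Lss had a log2 fold change of -1.17 ± 0.65 (edgeR, unadjusted p = 0.101, adjusted p = 1.00), and Lss lies on chromosome 10 at 76531588 to 76557138.

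Cyp51, the lanosterol demethylase, had the most counts of the 9 enzymes in fed libraries, 657 in all, against 160 in fasted libraries. It had 3.49, 13.8, 6.79 and 6.98 CPM in fasted libraries 1, 3, 4 and 5, against 24.4, 28.3, 26.7 and 9.89 CPM in fed libraries 1, 3, 4 and 5. Fed libraries 1, 3 and 4 lay close together, well above the fasted libraries, and fed library 5 lay below fasted library 3. For Cyp51 this gave a log2 fold change of -1.52 ± 0.46 (edgeR, unadjusted p = 0.0067, adjusted p = 0.794). Cyp51 lies on chromosome 5 at 4081145 to 4104746.

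Sc4mol, the sterol methyl oxidase that acts after Cyp51, was the other enzyme without overlap. It had 2.56, 2.14, 9.54 and 3.59 CPM in fasted libraries 1, 3, 4 and 5, against 14.2, 16.6, 11.3 and 10.6 CPM in fed libraries 1, 3, 4 and 5. The margin was narrow, since fasted library 4 stood near fed library 5, and the other fasted libraries were far below. The log2 fold change was -1.55 ± 0.50 (edgeR, unadjusted p = 0.0103, adjusted p = 0.869). With 1 library left out it ran from -2.25 (without fasted library 4) to -1.32 (without fasted library 3). Sc4mol, annotated as Msmo1, lies on chromosome 8 at 64718139 to 64733792.

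Set against each other on TMM-scaled levels, the late steps separated the groups in their sum and the early steps did not. With library totals alone the late sums overlapped, with 158 of 2546920 counts in fasted library 3 and 968 of 25252366 in fed library 4. The late sum was 17.9, 30.7, 32.1 and 24.2 CPM in fasted libraries 1, 3, 4 and 5, against 61.3, 74.8, 71.2 and 59.3 CPM in fed libraries 1, 3, 4 and 5. The early sum was 5.82, 10.7, 6.61 and 7.55 CPM in fasted libraries 1, 3, 4 and 5, against 13.8, 22.8, 17.5 and 8.52 CPM in fed libraries 1, 3, 4 and 5. Late sums averaged 26.2 ± 6.53 CPM in fasted and 66.7 ± 7.52 CPM in fed libraries, and early sums 7.67 ± 2.14 CPM in fasted and 15.7 ± 6.02 CPM in fed libraries (SD, n = 4 each), with fed library 5 below fasted library 3 in the early sum. The early steps made up 22.8% ± 3.89 of the summed level in fasted and 18.5% ± 4.45 in fed libraries, with overlapping groups and no test of that difference. The mean log2 fold change was -0.65 over the 2 tested early enzymes, which differ from each other in sign, and -1.43 over the 5 late enzymes. Without a filter on low counts, where all 9 are fitted, the medians were -1.32 for early and -1.52 for late enzymes. No p is given for these sums and means, because the enzymes were chosen with results of these data known.

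**Figure D2:**
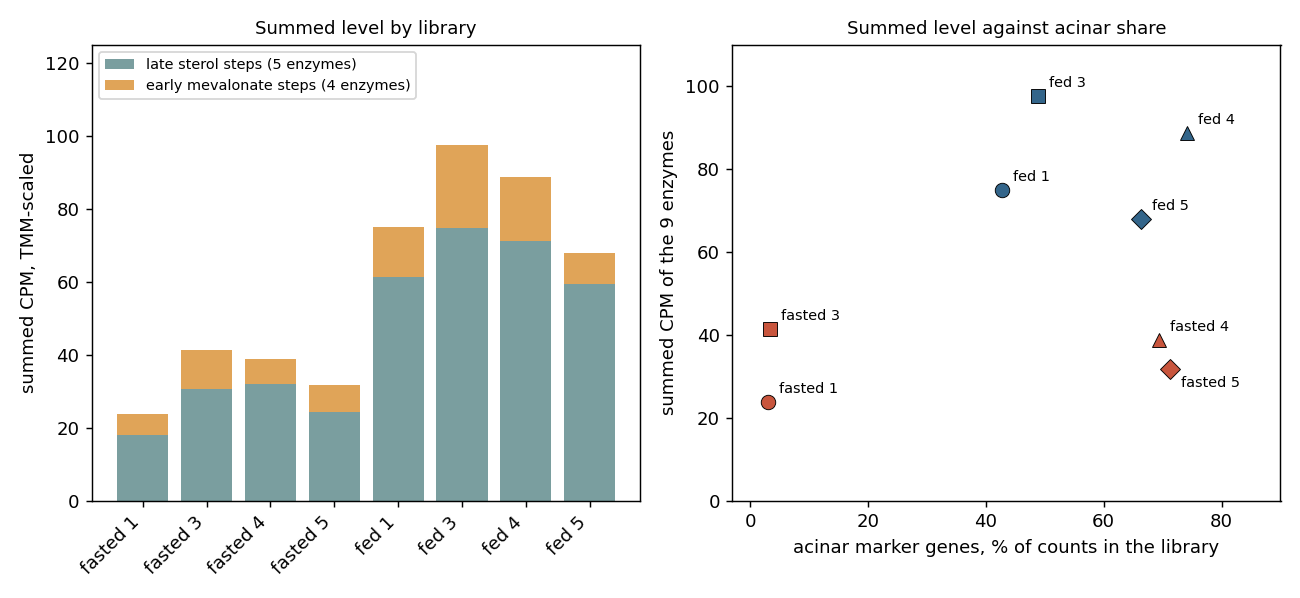
Left, summed CPM of the 5 late and, stacked on them, the 4 early enzymes in each library, fasted libraries first; right, summed CPM of all 9 enzymes against the percent of counts from acinar marker genes, 1 point for each library. Fasted sums lie between 23.8 and 41.4 CPM and fed sums between 67.9 and 97.5 CPM, and fasted libraries 4 and 5, whose acinar share is near that of fed libraries 4 and 5, lie between fasted libraries 1 and 3.

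On TMM-scaled levels, sums were low in fasted libraries both poor and rich in acinar RNA. Fasted libraries 4 and 5, with acinar shares of 69.4% and 71.2%, summed to 38.7 and 31.7 CPM, against 88.7 and 67.9 CPM in fed libraries 4 and 5, with shares of 74.2% and 66.4%. Without fasted libraries 1 and 3 the log2 fold changes were -1.78 ± 0.59 for Fdps, -0.88 ± 0.50 for Fdft1, -1.70 ± 0.81 for Sqle, -1.92 ± 1.09 for Lss, -1.70 ± 0.51 for Cyp51 and -1.0 ± 0.54 for Sc4mol, none of them called. That of Mvd turned to -0.18 ± 0.78. With libraries scaled to the summed counts of the ILC2 identity markers in place of TMM, Fdps was at -1.59 ± 0.46, Sqle at -1.91 ± 0.64 and Cyp51 at -1.57 ± 0.46. Summed markers of T cells took from 0.00452% to 0.017% of counts in fasted and from 0.00217% to 0.00556% in fed libraries, and those of B cells at most 0.000735% in fasted and 0.000334% in fed libraries. Islet endocrine markers took from 0.000294% to 0.0051% of counts in fasted and from 0.00403% to 0.00901% in fed libraries, and were lower in the fasted library of each same-number pair, as the summed enzymes were. B cell shares were higher in every fasted than in every fed library. The part of these cells, and of acinar cells, in the enzyme counts was not tested.

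**Figure D3:**
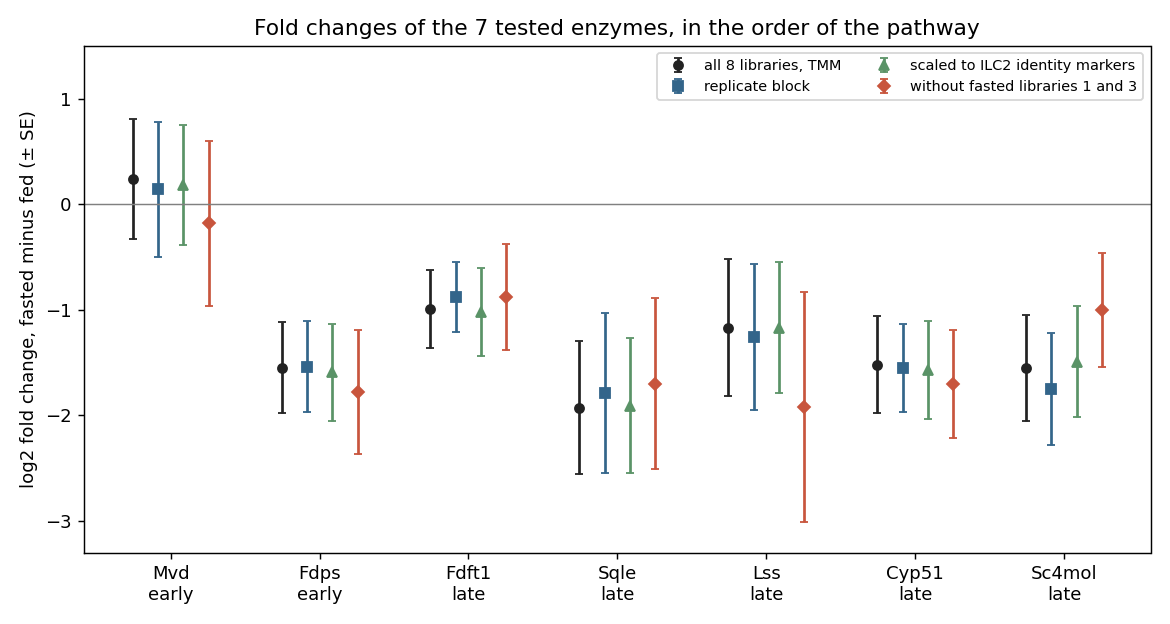
Log2 fold change (fasted minus fed, with its SE) of the 7 tested enzymes in pathway order, for all 8 libraries, with the replicate block, scaled to ILC2 identity markers, and without fasted libraries 1 and 3. The 6 enzymes from Fdps to Sc4mol lie below 0 in each of the 4 settings, and Mvd lies near 0.

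The enzymes did not vary as 1 unit among the fed libraries. Fed library 5 had the highest Fdft1 of all 8 libraries and the lowest Hmgcs1, Mvd, Fdps, Sqle, Cyp51 and Sc4mol of the fed libraries. Fed library 1 was the reverse for this pair, with the highest Sqle (9.77 CPM) and the lowest fed Fdft1 (10.2 CPM). Across deviations from the group means over the same 8 libraries, Pearson's r was lowest between Fdft1 and Sqle, at -0.72. It was highest between Mvd and Cyp51, at 0.80, then 0.77 between Sqle and Cyp51 and 0.76 between Hmgcs1 and Fdps. Hmgcs1 had at most 7 counts in any library but fed libraries 3 and 4. The genes share the depth and composition of each library, and these values are descriptions only. The 5 genes outside the set whose levels over the 8 libraries were most like the enzymes' mean standardised log2 CPM were Ywhah, a 14-3-3 protein (Pearson's r = 0.97), Nfe2l1, a transcription factor, Dynll1, a dynein light chain, Bccip, and Nop56, a nucleolar protein (r = 0.94 for each of the last 4). Their log2 fold changes ran from -0.86 ± 0.50 for Bccip to -0.44 ± 0.31 for Nfe2l1, and none was called. These genes were picked from all tested genes for following a profile that is lower in every fasted library. Their high r and negative values thus follow from the choice.

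Promoter windows were shown because the pathway's genes are known targets of SREBP factors, which act with NF-Y and Sp1. RefSeq windows of 300 bases on GRCm38.p6 (250 before the gene's start and 50 after it) were matched for 6 of the 9 enzymes, namely Hmgcs1, Mvd, Idi1, Lss, Cyp51 and Sc4mol. The motifs searched on both strands were a sterol regulatory element core (TCACNCCAC), the NF-Y box (CCAAT) and the Sp1 box (GGGCGG). All 6 windows held an NF-Y box and all 6 an Sp1 box, against 37.4% and 35.7% of the 32851 windows in the table, and 12.8% of those windows held both. Hmgcs1 alone of the 6 held a match to that sterol regulatory element core, from 137 to 129 bases before its start, as did 1.24% of all windows. Other forms of the element were not searched, so a window without a match may still hold one. The 160 bases before the start are printed 5' to 3' for Hmgcs1 (chr13:119690191-119690350, plus strand), with the only such core, for Mvd (chr8:122443423-122443582, minus strand), whose mean was not lower in the fasted libraries, and for Cyp51 (chr5:4104698-4104857, minus strand) and Sc4mol (chr8:64733579-64733738, minus strand), whose means were. Capitals mark the motif matches on either strand, none of which overlap each other. Starts and distances here are those of RefSeq, which can differ from the GENCODE positions given above. The Sc4mol stretch lies inside the GENCODE span of its gene, and the Cyp51 stretch lies partly inside that of Cyp51.
Hmgcs1: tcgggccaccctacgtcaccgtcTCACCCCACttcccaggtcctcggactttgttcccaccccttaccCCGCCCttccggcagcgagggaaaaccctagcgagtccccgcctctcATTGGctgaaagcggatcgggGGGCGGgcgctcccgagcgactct
Mvd: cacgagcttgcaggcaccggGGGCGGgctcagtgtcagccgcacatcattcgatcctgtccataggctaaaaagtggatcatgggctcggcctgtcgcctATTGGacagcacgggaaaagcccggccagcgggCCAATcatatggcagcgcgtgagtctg
Cyp51: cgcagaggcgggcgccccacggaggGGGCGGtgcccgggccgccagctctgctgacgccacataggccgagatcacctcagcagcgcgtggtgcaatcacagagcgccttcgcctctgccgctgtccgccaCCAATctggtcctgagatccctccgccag
Sc4mol: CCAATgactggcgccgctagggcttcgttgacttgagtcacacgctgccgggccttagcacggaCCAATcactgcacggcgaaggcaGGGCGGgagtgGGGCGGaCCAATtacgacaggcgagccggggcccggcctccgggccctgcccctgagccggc
In these stretches Mvd holds 2 NF-Y boxes and 1 Sp1 box, Cyp51 holds 1 of each, and Sc4mol holds 3 NF-Y and 2 Sp1 boxes. Any relation of the boxes to the fold changes was not tested. A match is a description of the letters and not of a bound site.

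Genes around the pathway were looked up in 3 lists (isoprenoid branches, SREBP control, and sterol efflux, storage and oxysterols) of 34 genes, of which 33 were matched and 23 tested. None had an adjusted p under 0.05 by edgeR, 1 was lower and 2 were higher at an unadjusted p under 0.05, where 1.62% of all genes tested were lower and 2.77% higher. The signs and medians of these lists stand beside 50.2% negative and a median of 0.00 over all genes tested. Other tested enzymes of the 2 arms, outside these lists and chosen after their values were seen except for Dhcr7, were closer between the groups than most of the 9. Lbr, a sterol reductase of the inner nuclear membrane, averaged 25.9 ± 7.56 CPM in fasted and 25.4 ± 4.44 CPM in fed libraries, at a log2 fold change of 0.03 ± 0.29. Ebp, a sterol isomerase, averaged 15.3 ± 4.17 CPM in fasted and 15.6 ± 3.78 CPM in fed libraries, at -0.02 ± 0.32, and Sc5d, a sterol desaturase, 3.91 ± 0.507 CPM in fasted and 4.07 ± 3.18 CPM in fed libraries, at -0.12 ± 0.67. Nsdhl, a sterol dehydrogenase that works beside Sc4mol, was at -0.57 ± 0.45. In the mevalonate arm Acat2, a thiolase, was at -0.40 ± 0.41, Mvk, which phosphorylates mevalonate, at -0.40 ± 0.47, and Pmvk, the next kinase, at 0.15 ± 0.54. All 7 overlapped between the groups and had an adjusted p of 1.00 with edgeR. Tm7sf2, Hsd17b7 and Idi2, also of these arms, had too few counts to be tested, and their fasted means were lower, with overlap. Tm7sf2 averaged 0.573 ± 0.684 CPM in fasted and 2.68 ± 1.88 CPM in fed libraries. Hsd17b7 averaged 0.559 ± 0.45 CPM in fasted and 1.69 ± 1.37 CPM in fed libraries, and Idi2 0 and 0.786 ± 1.52 CPM. Dhcr7, a terminal reductase of the sterol arm, averaged 3.54 ± 0.863 CPM in fasted and 5.36 ± 1.13 CPM in fed libraries, with overlapping values in the fasted range of 2.79 to 4.66 CPM and the fed range of 4.44 to 6.99 CPM, at a log2 fold change of -0.61 ± 0.44 (edgeR, unadjusted p = 0.191, adjusted p = 1.00). The isoprenoid branches, which draw on the farnesyl diphosphate that Fdps makes, had 2 negative and 5 positive values among 7 tested genes, with a median of 0.23, and Ggps1, which makes geranylgeranyl diphosphate, was not tested, at 3.07 ± 2.01 CPM in fasted and 2.96 ± 2.04 CPM in fed libraries.

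**Figure D4:**
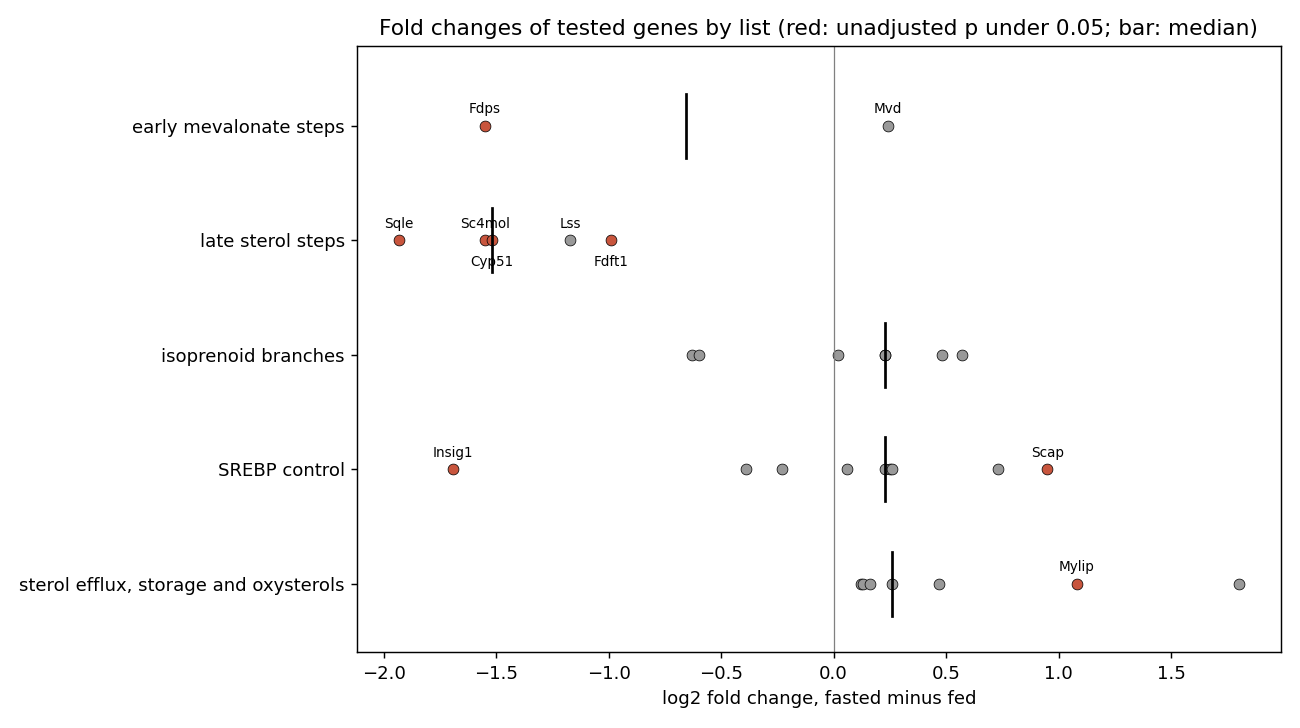
Log2 fold change (fasted minus fed) of each tested gene by list, with the median of each list as a bar and genes at an unadjusted p under 0.05 in red. The late sterol steps lie between -1.93 and -0.99, and the medians of the 3 lists of other pathway genes lie between 0.23 and 0.26.

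Among the regulators, Insig1 was lower and Scap higher in fasted libraries at an unadjusted p under 0.05, and neither passed adjustment. Neither stayed under that mark in every alternative. The edgeR p of Scap was 0.0517 with the replicate block, 0.054 without a filter on low counts and 0.0977 with library totals alone. That of Insig1 was 0.0561 with library totals alone. With libraries left out, the edgeR p of Scap rose as high as 0.0871 (without fasted library 5). That of Insig1 rose as high as 0.0912 (without fed library 4). Insig1, itself an SREBP target, had 0.466, 4.08, 8.26 and 7.36 CPM in fasted libraries 1, 3, 4 and 5, against 6.22, 19.9, 26.7 and 11.9 CPM in fed libraries 1, 3, 4 and 5. The fasted library was the lower of each same-number pair and the groups overlapped through fed library 1, at a log2 fold change of -1.69 ± 0.68 (edgeR, unadjusted p = 0.0295, adjusted p = 1.00), or -1.07 ± 0.57 without fasted libraries 1 and 3. Scap had 9.78, 9.71, 8.44 and 12.8 CPM in fasted libraries 1, 3, 4 and 5, against 7.10, 5.93, 5 and 3.07 CPM in fed libraries 1, 3, 4 and 5. Here every fasted library lay above every fed library, at 0.95 ± 0.39 (edgeR, unadjusted p = 0.0316, adjusted p = 1.00). The share of all genes tested with fasted above fed without overlap was not counted, so this separation has no background. Among the 23 tested genes of the 3 lists, 3 lay so, namely Scap, Mylip and Fnta. Fnta, of the isoprenoid branches, was at 0.57 ± 0.39 and is named for this alone. Srebf2, the SREBP that mainly drives sterol genes, averaged 8.44 ± 1 CPM in fasted and 11 ± 3.28 CPM in fed libraries, at -0.39 ± 0.34 (0.09 with library totals alone, a scaling that shifted the median of all genes by 0.51), and Srebf1, which mainly drives fatty acid genes, 11.3 ± 1.97 CPM in fasted and 9.64 ± 1.04 CPM in fed libraries, at 0.23 ± 0.31. Of the 9 tested genes of SREBP control 3 were negative and 6 positive, with a median of 0.23.

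Genes of sterol efflux, storage and oxysterols had 7 positive and 0 negative values among 7 tested genes, where 50.2% of all genes tested were negative. Only 1 of the 7, Mylip, had an unadjusted edgeR p under 0.05. The median of the 7 was 0.26, or 0.18 without fed library 5 and 0.47 without fed library 1. Mylip, a ubiquitin ligase induced by sterols through liver X receptors, had 10.7, 17.1, 11.9 and 20.2 CPM in fasted libraries 1, 3, 4 and 5, against 4.00, 8.49, 9.93 and 5.11 CPM in fed libraries 1, 3, 4 and 5. The fasted libraries lay above the fed libraries without overlap, at 1.08 ± 0.39 (edgeR, unadjusted p = 0.0184, adjusted p = 1.00). As for Scap, the share of all genes tested that lay so was not counted. The cholesterol exporter Abca1 averaged 6.98 ± 4.35 CPM in fasted and 2.05 ± 2.89 CPM in fed libraries, at 1.80 ± 1.19 (edgeR, unadjusted p = 0.161). With 1 library left out, Abca1 ran from 1.34 (without fed library 3) to 3.01 (without fed library 5). Abcg1, another exporter, averaged 14.1 ± 3.20 CPM in fasted and 12 ± 4.86 CPM in fed libraries, at 0.26 ± 0.35. Npc1, which exports cholesterol from lysosomes, was at 0.18 ± 0.51.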

How the data were processed

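Libraries were made with CEL-seq2, a barcoded 3' end method, after Trizol extraction, per the labels' protocols. The authors deposited raw counts per gene as whole numbers. No source used here says if these are reads or molecular identifiers. The submitters' processing notes name STAR, edgeR and mm10 without versions. The 4 sequencing files hold both treatments, so a library's treatment was read from its column name, and 2 of the 10 columns (number 2 of each treatment) were not used. The use of numbers 1, 3, 4 and 5 follows an earlier account of these data, which left out the lowest total of each treatment. The labels do not tie libraries to individual mice, and p-values therefore reflect library-to-library spread alone, which may be technical. Replicate libraries differed beyond sampling noise, with a chi-square of at least 15.0 per gene.

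The 11 ERCC spike-in rows (20 counts) were left out. Genes were fitted with edgeR 4.0.16 in R 4.3.3: filterByExpr, TMM factors (0.54 to 2.10), robust quasi-likelihood test without covariates, two-sided, Benjamini-Hochberg over 7700 genes, threshold 0.05; fits were tested on simulated data. Intervals and the limit of 3 counts cover counting error only. Alternatives were other scalings, filters, DESeq2 1.42.0 (also without independent filtering, added after seeing the data), limma-voom (limma 3.58.1), a replicate block and libraries left out. The replicate block and the comparisons of same-number pairs treat column numbers as pairs, and the main test does not. Deviations from group means correlated at 0.225, 0.139, 0.504 and 0.131 in same-number pairs. However, 2 pairs of different numbers reached 0.215 and 0.197, above the same-number values of 0.139 and 0.131. These correlations do not establish a pairing, and no label states one. The enzymes and lists were chosen with earlier results of these data known. Named genes are the 9 enzymes, list genes at an unadjusted p under 0.05, a fixed set of regulators and pathway genes, and the 5 genes most like the enzymes. Outside that rule, Fnta and other enzymes of the 2 arms were named after their values were seen. Some genes that rule takes, and the counts and medians of the lists that hold them, are not reported here. Gene positions are from GENCODE vM21 (mm10) and promoters from RefSeq (GRCm38.p6).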

Additional observations from a re-analysis of the deposited data

How the results depend on the processing

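Over 19 alternatives no enzyme with an adjusted p was called (with DESeq2 and its independent filtering 4 of 7 had one), and all fold changes of the enzymes kept their sign except 2 of Mvd, which was at -0.23 without fasted library 3 and at -0.18 without fasted libraries 1 and 3; leaving out 1 library at a time put Mvd between -0.23 and 0.45. With the replicate block, which pairs column numbers, Fdps was at -1.54, Sqle at -1.79, Cyp51 at -1.55 and Sc4mol at -1.75, and no call changed. Library totals alone shifted the median of all genes by 0.51. They gave 1 called gene and 0 enzymes without overlap, and the sums of all 9 enzymes and of the late steps overlapped. The means were -0.05 (early) and -1.05 (late) under library totals alone. List medians were 0.52 (isoprenoid branches), 0.74 (SREBP control) and 0.89 (efflux). All of these are to be read against that shift. No filter on low counts gave 1 called gene and an early mean of -1.15, with all 9 enzymes fitted, and DESeq2 gave 17 called genes, or 8 without independent filtering. Without fasted libraries 1 and 3 there were 4 enzymes without overlap (5.11% of genes tested, with fewer libraries to overlap). Hmgcs1 passed the filter in that setting, at -2.10 ± 1.45. The early mean of -1.35 was therefore over Hmgcs1, Mvd and Fdps, and the main early mean over Mvd and Fdps alone. With 1 library left out at a time, enzymes without overlap ran from 2 to 5 (5 without fed library 5, where 3.21% of genes tested were), and medians from -0.05 to 0.28 for isoprenoid branches (lowest without fasted library 1), from -0.03 to 0.25 for SREBP control (lowest without fed library 1) and from 0.18 to 0.47 for efflux (highest without fed library 1). Apart from the entry of Hmgcs1 into that early mean, the cause of the shifts without 1 or 2 libraries was not tested. Low counts limit Hmgcs1 and Idi1 most, with 14 and 16 counts in all fasted libraries. The late enzymes Lss and Sqle had 22 and 34, fewer than the early enzymes Fdps and Mvd, with 55 and 71.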
